A study of Mus musculus with 130 samples.

Results

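Lcn2 and 9 further acute phase genes, Saa1, Saa2, Saa3, Orm1, Orm2, Crp, Apcs, Fgb and Itih4, were followed through mouse liver RNA under dietary iron loading. They were taken by name from the deposited tables, 10 genes of 35274 gene identifiers in the table of the diet study and of 35711 in that of the strain panel. All 10 were found in both tables and all 10 passed the filter on low counts in both.

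Liver RNA of 130 mice, all labelled male, was sequenced to ask how dietary iron changes the liver and how inbred strains differ on an iron-loaded diet. In the diet study C57BL/6J mice, an inbred strain, received chow, a diet sufficient in iron at 50 ppm, a diet elevated in iron at 500 ppm, 2% carbonyl iron (20000 ppm), or 2% carbonyl iron with cellulose as the fiber source, with 3 mice on each of the 5 diets. In the panel 114 strains ate chow for 4 weeks and then the 2% iron diet for 6 weeks, so no panel mouse had an unloaded control. The panel held 56 BXD strains (recombinant inbred lines of C57BL/6J and DBA/2J), 20 AXB/BXA strains (A/J and C57BL/6J), 4 BXH strains, 3 CXB strains and 31 other inbred strains, with 1 mouse per strain except 129X1/SvJ with 2. The strain labelled BXD24/TyJ-Cep290<rd16>/J, whose name carries a Cep290 allele, was counted among the BXD strains. The labels give no age of the mice. Each value of a strain is therefore that of a single mouse, and a strain cannot be told apart from its mouse.

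The acute phase response is the change in plasma proteins that the liver makes during inflammation and tissue injury. Macrophages release interleukin-6 and interleukin-1, which act on hepatocytes through STAT3, C/EBP and NF-kB, and the hepatocytes then secrete serum amyloid A, orosomucoid, pentraxins, fibrinogen and protease inhibitors in place of part of their usual output. Lipocalin 2, the product of Lcn2, binds bacterial siderophores and so keeps iron from bacteria, and it is made both by stimulated hepatocytes and by neutrophils. In the mouse serum amyloid A and serum amyloid P component, the product of Apcs, respond strongly, whereas C-reactive protein, which leads the response in humans, responds weakly.

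Hepatocyte markers were present, with the 9 hepatocyte genes summing to 38210 to 54250 TPM (a transcript level scaled for transcript length and library total) in the diet mice and to 36740 to 82630 TPM in the panel. Library totals ranged from 10420708 to 20357169 expected counts on the 5 diets and from 9407880 to 20572879 in the strains. The library labelled BXD65/RwwJ held 1.08 TPM of 4 Y-linked genes together, against 32.7 to 116 TPM in the other 113 strains, and so went against its label of male. Mouse 2 of the 500 ppm group stood apart from its 2 group mates in Lcn2, Apcs and the neutrophil genes, as given below. The samples are pieces of whole liver, in which fewer cells of a type and less RNA per cell cannot be told apart.

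The positions are those of GENCODE M21 on GRCm38, and all 10 genes are protein coding. Lcn2 (ENSMUSG00000026822) lies at chr2:32384633-32388252 on the minus strand. The Saa genes form a cluster on chromosome 7, with Saa3 (ENSMUSG00000040026) at chr7:46711998-46715700, Saa1 (ENSMUSG00000074115) at chr7:46740497-46742980 and Saa2 (ENSMUSG00000057465) at chr7:46751790-46754313. Orm1 (ENSMUSG00000039196) lies at chr4:63344560-63348163 and Orm2 (ENSMUSG00000061540) at chr4:63362449-63365878, with Orm3 between them. The pentraxin genes Crp (ENSMUSG00000037942) at chr1:172698055-172833031 and Apcs (ENSMUSG00000026542) at chr1:172893961-172895041 are neighbours. Fgb (ENSMUSG00000033831) lies at chr3:83040141-83049863 and Itih4 (ENSMUSG00000021922) at chr14:30886476-30902353.

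The windows around the start sites of 6 members are shown: those of the 5 members with a window that changed in a diet comparison by edgeR, and that of Orm2, whose level across strains was closest to that of Lcn2 among the members. They come from the RefSeq table for GRCm38.p6 and run from 250 bases before the first base of the gene to 50 bases from that base on, 5′ to 3′ on the strand of the gene. Capitals mark matches, on either strand, to motifs described for factors of the acute phase response. Members Saa3, Crp and Itih4 also had a window, so that 9 of the 10 matched, and Orm1 had no entry.
Lcn2: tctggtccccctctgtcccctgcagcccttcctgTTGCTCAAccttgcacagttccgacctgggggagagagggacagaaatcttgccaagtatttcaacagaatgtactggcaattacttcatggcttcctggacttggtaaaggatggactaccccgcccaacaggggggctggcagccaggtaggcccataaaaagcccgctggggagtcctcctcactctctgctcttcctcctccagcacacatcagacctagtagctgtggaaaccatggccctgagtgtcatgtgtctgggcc
Saa1: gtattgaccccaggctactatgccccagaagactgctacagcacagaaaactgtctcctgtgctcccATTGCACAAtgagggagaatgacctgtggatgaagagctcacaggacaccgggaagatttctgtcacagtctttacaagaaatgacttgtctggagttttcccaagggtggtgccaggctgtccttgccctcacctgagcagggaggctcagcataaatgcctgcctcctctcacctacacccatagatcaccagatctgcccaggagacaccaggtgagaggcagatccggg
Saa2: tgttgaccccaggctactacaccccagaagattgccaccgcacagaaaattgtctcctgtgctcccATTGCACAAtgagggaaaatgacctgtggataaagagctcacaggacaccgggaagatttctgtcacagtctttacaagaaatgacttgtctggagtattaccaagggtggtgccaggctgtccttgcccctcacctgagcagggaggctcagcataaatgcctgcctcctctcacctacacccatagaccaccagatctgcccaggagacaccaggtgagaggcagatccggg
Orm2: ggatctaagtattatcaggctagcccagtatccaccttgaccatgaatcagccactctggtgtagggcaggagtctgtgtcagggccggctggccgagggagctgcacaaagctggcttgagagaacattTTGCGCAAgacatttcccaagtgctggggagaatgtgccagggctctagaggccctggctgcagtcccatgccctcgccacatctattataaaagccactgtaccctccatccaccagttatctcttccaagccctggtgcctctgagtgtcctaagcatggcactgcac
Apcs: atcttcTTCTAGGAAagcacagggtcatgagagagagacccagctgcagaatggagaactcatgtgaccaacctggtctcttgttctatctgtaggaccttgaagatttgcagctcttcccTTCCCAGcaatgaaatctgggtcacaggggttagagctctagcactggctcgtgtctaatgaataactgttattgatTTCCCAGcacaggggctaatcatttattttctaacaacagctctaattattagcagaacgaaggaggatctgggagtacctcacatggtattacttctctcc
Fgb: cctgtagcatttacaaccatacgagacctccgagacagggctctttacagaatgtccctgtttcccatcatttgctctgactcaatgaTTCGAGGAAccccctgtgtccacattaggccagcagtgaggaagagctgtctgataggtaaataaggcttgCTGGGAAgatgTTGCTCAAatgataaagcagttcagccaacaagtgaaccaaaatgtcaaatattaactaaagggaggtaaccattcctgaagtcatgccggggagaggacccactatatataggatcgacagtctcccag
The Lcn2 window is chr2:32387690-32387989 and lies inside the GENCODE gene, whose annotated first base is further upstream. The Saa1 window is chr7:46742931-46743230, the Saa2 window chr7:46751583-46751882, the Orm2 window chr4:63362199-63362498, the Apcs window chr1:172895005-172895304 and the Fgb window chr3:83049814-83050113. The Saa1 and Saa2 windows were identical at 287 of 301 aligned positions (95.3%), and the Saa1 and Saa3 windows at 54.2%.

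The motifs searched were TTCNNNGAA (STAT), CTGGGAA (the core of a type II interleukin-6 response element), a pair of NF-kB motifs of 10 letters, and TTGCNNAA and TTNNGCAAT (C/EBP), where N is any base. TTGCNNAA was present in 6 of the 9 member windows, those of Lcn2, Saa1, Saa2, Saa3, Orm2 and Fgb, and in 10.8% of all 32851 windows. Saa1 and Saa2 carried the same ATTGCACAA, in which TTGCNNAA and TTNNGCAAT overlap, 183 and 184 bases before the start, and TTNNGCAAT was in 2.18% of all windows. CTGGGAA was present in Apcs, as a pair of copies on the opposite strand, and in Fgb, and in 11.1% of all windows. TTCNNNGAA was present in Apcs, Fgb and Itih4 and in 8.30% of all windows. The letters of both NF-kB motifs were in none of the 9 windows, against 1.63% and 20.7% of all windows, and Crp held none of the 6 motifs. These are matches of letters in a short window and no measure of binding.

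Neighbouring genes of the cluster can share reads. Of the stretches of 31 bases in the annotated transcripts of Saa1, 46% also occurred in those of Saa2. The share was 27.5% between Orm1 and Orm2, 9.4% between Orm2 and Orm3, 1.12% between Saa1 and Saa3, and 0 between Crp and Apcs. Levels of Saa1 against Saa2, and of Orm1 against Orm2, are therefore uncertain.

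On chow the members spanned a wide range of levels per length. Fgb, one of the chains of fibrinogen, was highest at 757 ± 118 TPM (SD, n = 3), followed by Orm1 at 593 ± 60.2 TPM, Itih4 at 549.7 ± 72.9 TPM, Crp at 197 ± 7.68 TPM, Saa1 at 77.0 ± 59.9 TPM and Apcs at 61.3 ± 10 TPM. Saa2 stood at 20.58 ± 6.15 TPM, Orm2 at 8.93 ± 1.26 TPM, Lcn2 at 7.82 ± 1.49 TPM and Saa3 at 4.89 ± 2.10 TPM. The ranges over mice overlapped for Fgb and Orm1, Orm1 and Itih4, Saa1 and Apcs, Orm2 and Lcn2, and Lcn2 and Saa3. Within each chow mouse, Fgb was still above Orm1, Orm2 above Lcn2 and Lcn2 above Saa3. For Orm1 and Itih4 and for Saa1 and Apcs the order differed between mice. The order of the genes was not tested.

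On 2% iron the acute phase genes moved in opposite directions. Against 50 ppm, Lcn2 and Apcs rose and Saa1 and Saa2 fell, while Saa3, Orm1, Orm2, Crp, Fgb and Itih4 did not pass the test. With edgeR's quasi-likelihood test and Benjamini-Hochberg adjustment over 13560 genes, 2 of the 10 were called higher, against 8.52% of all genes, and 2 lower, against 7.17%, so that 4 of the 10 stood beside 15.7% of all genes called in either direction. The median log2 change of the 10 was 0.05, and that of all genes was 0.01.

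Lcn2 showed the largest rise of the 10. Its level was 6.61, 21.1 and 9.66 TPM in the 3 mice on 50 ppm and 150, 34.3 and 74.6 TPM in the 3 mice on 2% iron. All 3 iron-loaded mice were above all 3 mice on 50 ppm, and the 2% mice also lay far from one another. The log2 change was 2.76 (SE 0.71, edgeR adjusted p = 0.0187), a 6.79-fold rise. On chow Lcn2 stood at 9.46, 6.57 and 7.43 TPM, and on 2% iron with cellulose at 243.5, 144 and 107 TPM. Against chow the log2 change on 2% iron was 3.35 (SE 0.74, adjusted p = 0.00543), and the cellulose diet against 50 ppm gave 3.62 (SE 0.72, adjusted p = 0.00261). The call against 50 ppm was lost without mouse 1 of the 2% group (adjusted p = 0.0804) and without mouse 1 or mouse 3 of the 50 ppm group (0.0909 and 0.0671), while the calls against chow and of the cellulose diet held in every fit tried.

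Apcs, the gene of serum amyloid P component, followed Lcn2 in direction. It was 55.7, 124 and 80.5 TPM on 50 ppm and 320, 212 and 155.9 TPM on 2% iron, and the groups did not overlap. The log2 change was 1.35 (SE 0.40, edgeR adjusted p = 0.0350). It was 72.7, 54.4 and 56.6 TPM on chow, giving a log2 change of 1.77 on 2% iron (SE 0.40, adjusted p = 0.00656), and 387.2, 225 and 237 TPM with cellulose, giving 1.59 against 50 ppm (SE 0.40, adjusted p = 0.00926). The call against 50 ppm was lost without mouse 1 or 2 of the 2% group (adjusted p = 0.142 and 0.0576) or mouse 1 or 3 of the 50 ppm group (0.146 and 0.103). Crp, its neighbour and the other pentraxin, lay between 143 and 216 TPM in all 15 mice and had a log2 change of -0.15 (SE 0.12, adjusted p = 0.444). Against chow the log2 change of Crp was -0.31 (SE 0.12, adjusted p = 0.0836). It passed there without mouse 2 of the 500 ppm group (-0.31, adjusted p = 0.0489).

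Saa1 and Saa2, the inducible serum amyloid A genes of the liver, went the other way. Saa1 was 145, 268 and 120 TPM on 50 ppm and 44.8, 24.8 and 38.6 TPM on 2% iron, a log2 change of -2.40 (SE 0.60, edgeR adjusted p = 0.0161). Saa2 was 27.4, 136 and 70.7 TPM on 50 ppm and 19.8, 15.95 and 14.9 TPM on 2% iron, a log2 change of -2.27 (SE 0.48, adjusted p = 0.00725). Neither gene's groups overlapped, though for Saa2 the lowest mouse on 50 ppm came close to the highest on 2% iron. With cellulose Saa1 stood at 16.97, 26.8 and 30.5 TPM (log2 change -2.97 against 50 ppm, SE 0.62, adjusted p = 0.00337) and Saa2 at 6.02, 15.4 and 16.5 TPM (-2.78, SE 0.50, adjusted p = 0.00137).

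The fall of Saa1 and Saa2 on 2% iron was called against 50 ppm and not against chow. On chow Saa1 was 146, 42 and 42.96 TPM and Saa2 26.4, 14.1 and 21.3 TPM, so the chow mice overlapped the 2% mice for both genes. Against chow the log2 changes on 2% iron were -1.20 for Saa1 (SE 0.59, edgeR adjusted p = 0.167) and -0.45 for Saa2 (SE 0.50, adjusted p = 0.573), and neither was called. Chow against 50 ppm gave -1.20 for Saa1 (adjusted p = 0.493) and -1.82 for Saa2 (adjusted p = 0.149), and edgeR called neither. These comparisons share their mice with one another. The Saa1 call against 50 ppm was lost without mouse 2 or 3 of the 2% group or mouse 2 of the 50 ppm group (adjusted p = 0.0619, 0.0511 and 0.0581), and that of Saa2 was kept in every fit that tested Saa2 as a gene of its own (adjusted p from 0.000515 to 0.0340). Chow against 50 ppm passed for Saa2 without mouse 1 of the 50 ppm group (-2.20, adjusted p = 0.0381).

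**Figure D1:**
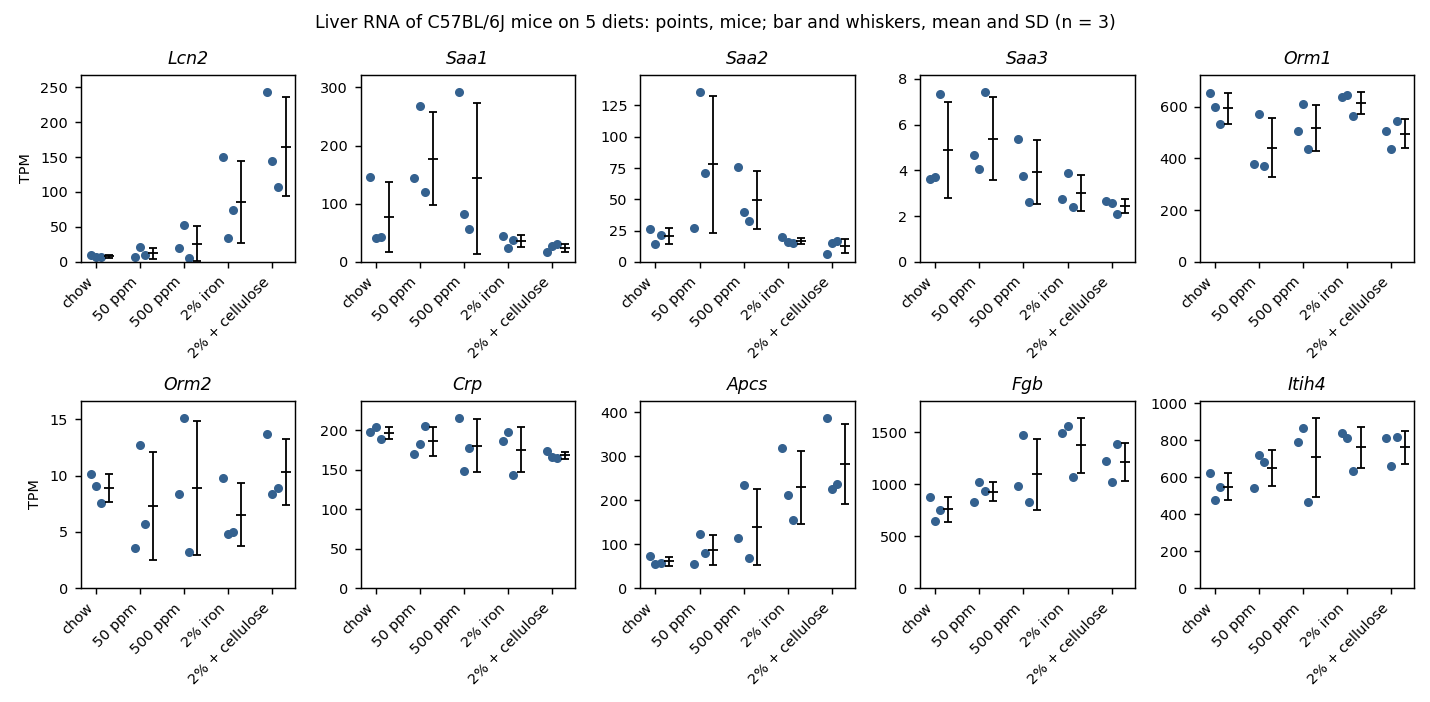
Levels of the 10 genes in TPM (vertical axes, from 0) by diet (horizontal axes), with a point for each of the 3 mice per diet and the mean with its SD beside them. Lcn2 and Apcs are higher on both 2% diets than on chow and 50 ppm, Saa1 and Saa2 are lower than on 50 ppm, and Crp stays between 143 and 216 TPM.

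The remaining 5 members beside Crp did not pass the test against 50 ppm. Fgb was 832, 1022 and 935 TPM on 50 ppm and 1489, 1560 and 1073 TPM on 2% iron, with no overlap, a log2 change of 0.50 (SE 0.19, edgeR adjusted p = 0.102). Against chow, where it was 877, 642 and 751 TPM, it rose by 0.73 (SE 0.20, adjusted p = 0.0159), a call lost without mouse 1 or 2 of the 2% group or mouse 2 of the chow group (0.0553, 0.0552 and 0.0647). Orm1, which encodes a plasma carrier protein and was the most abundant of the Orm transcripts here, had a log2 change of 0.41 against 50 ppm (SE 0.16, adjusted p = 0.104) and lay between 371 and 651 TPM in all 15 mice. Against 50 ppm Fgb passed without mouse 2 of the 500 ppm group (0.49, adjusted p = 0.0281) and Orm1 without mouse 2 of the 50 ppm group (0.62, adjusted p = 0.0214). Orm2 lay between 3.25 and 15.1 TPM (log2 change -0.19, SE 0.51) and Itih4, an inter-alpha-trypsin inhibitor heavy chain, between 464.3 and 867 TPM (0.15, SE 0.17).

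For Saa3 the counts and the TPM values differed. Its level was 4.66, 4.07 and 7.44 TPM on 50 ppm and 2.74, 3.88 and 2.40 TPM on 2% iron, so all 3 iron-loaded mice were below all 3 mice on 50 ppm, while edgeR on the counts gave a log2 change of -0.04 (SE 0.36, adjusted p = 0.951). With limma on log2(TPM + 1) the change was -0.66 (adjusted p = 0.155). On the cellulose diet Saa3 was 2.65, 2.59 and 2.08 TPM, and limma called it lower than on 50 ppm (-0.86, adjusted p = 0.0370), where edgeR did not (-0.26, adjusted p = 0.631). The cause of the difference between the 2 units was not tested.

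Against chow, 3 of the 10 were called higher on 2% iron, Lcn2, Apcs and Fgb, against 11.9% of all genes, and none lower, against 10.9% (22.8% in either direction). On 2% iron with cellulose against 50 ppm the count was 2 higher and 2 lower, Lcn2, Apcs, Saa1 and Saa2, against 15.4% and 14.3% of all genes (29.7% in either direction). In a fit of these 2 groups alone Crp was called lower as well (-0.27, adjusted p = 0.0481, against 0.106 in the fit of all 5 diets). The median log2 changes of the 10 were -0.09 and 0.06 in these comparisons, and those of all genes 0.01 and 0.00.

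Between the 2% diet labelled with cellulose as its fiber source and the other 2% diet, whose fiber source the labels do not give, edgeR called none of the 10, against 0.00737% of all genes called higher, 0.0737% lower and 0.0811% in either direction. At an unadjusted p under 0.05 there was 1 of the 10 (Orm1, at a log2 change of -0.38), and DESeq2 and limma called 0. The log2 change of Lcn2 was 0.85 (SE 0.62, adjusted p = 0.599). For chow against 50 ppm edgeR called 0 of the 10, against 0.265% of all genes higher, 0.125% lower and 0.391% in either direction, with 2 at an unadjusted p under 0.05 and 0 by DESeq2 and limma.

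At 500 ppm the mice disagreed among themselves. Lcn2 was 20.0, 53.3 and 4.99 TPM, Apcs 115, 236 and 68.5 TPM and Saa1 293, 82.3 and 56.5 TPM. Mouse 2 was highest for Lcn2 and Apcs and mouse 1 for Saa1, so the high values did not fall in the same mouse. Against 50 ppm edgeR called 0 of the 10, against 0.0% of all genes, with 0 of the 10 at an unadjusted p under 0.05 and 0 by DESeq2 and limma. The log2 change of Lcn2 was 1.14 (SE 0.71), and without mouse 2 of the 500 ppm group it was -0.03. On 2% iron against 500 ppm edgeR called Saa1 (log2 change -2.03, SE 0.59, adjusted p = 0.0416) and Saa2 (-1.62, SE 0.48, adjusted p = 0.0445) lower, 2 of the 10 against 4.75% of all genes, and none higher, against 6.59% (11.3% in either direction). Neither was called when any 1 of the 3 mice on 2% iron, mouse 1 of the 500 ppm group or mouse 2 of the cellulose group was left out. With mouse 3 of the 500 ppm group, mouse 1 or 3 of the 50 ppm group or any 1 chow mouse left out, 1 of them was called. The adjusted p ran up to 0.252 for Saa1 and 0.182 for Saa2 over the alternatives. Lcn2 stood at 1.62 (SE 0.65, adjusted p = 0.126). Without mouse 2 of the 500 ppm group 5 of the 10 were called, with Lcn2 at 2.79 (adjusted p = 0.0145), Apcs at 1.27 (0.0253) and Fgb at 0.54 (0.0350), and with limma on log2(TPM + 1) 0 were called.

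**Figure D2:**
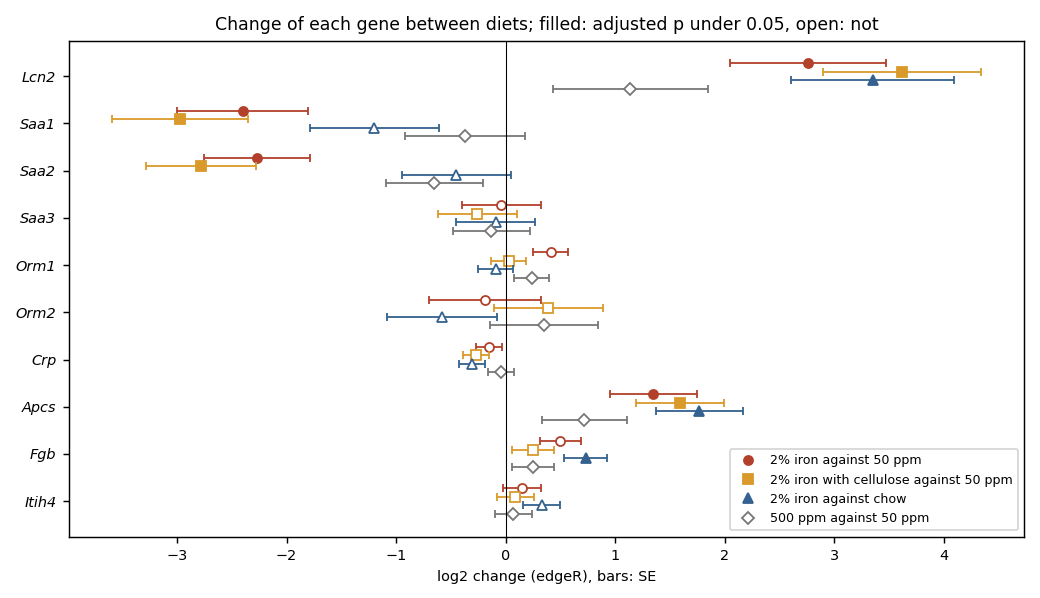
Log2 change of each gene (horizontal axis, edgeR, bars 1 SE) in 4 diet comparisons, where filled symbols have an adjusted p under 0.05. Lcn2 and Apcs lie to the right in both 2% diets, Saa1 and Saa2 to the left against 50 ppm, and no gene is filled for 500 ppm against 50 ppm.

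The wider acute phase programme was read from 3 lists. Of 22 other positive acute phase genes, edgeR called 8 higher and 2 lower on 2% iron against 50 ppm, with a median log2 change of 0.64, and 11 higher and 1 lower against chow, with a median of 0.65. The rises against 50 ppm included Fgl1, a fibrinogen-like hepatokine (1.70, SE 0.45, adjusted p = 0.0216), Hamp, the gene of hepcidin that responds to iron as well as to interleukin-6 (1.40, SE 0.30, adjusted p = 0.00761), and Serpina3n, a protease inhibitor (1.05, SE 0.31, adjusted p = 0.0372). The 2 lower genes were Vnn1, a pantetheinase (-1.26, SE 0.32, adjusted p = 0.0183), and Saa4, the constitutive member of the Saa cluster (-1.0, SE 0.17, adjusted p = 0.00247). Saa4 was 85.5, 60.8 and 70.3 TPM on 50 ppm, 36.8, 39.7 and 37.7 TPM on 2% iron and 93.5, 109 and 113 TPM on chow, so for Saa4, unlike Saa1 and Saa2, the 2% mice were also below all chow mice (log2 change -1.60, SE 0.18, adjusted p = 9.12e-05).

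Of 10 negative acute phase genes, whose transcripts fall in inflammation, 1 was higher on 2% iron against 50 ppm, the transferrin gene Trf (0.69, SE 0.15, edgeR adjusted p = 0.00725), and 1 lower, the apolipoprotein gene Apoa1 (-0.86, SE 0.13, adjusted p = 0.00112), with a median of -0.04. Of 22 genes of acute phase signalling 19 were tested. Against 50 ppm 1 was called, Nfkbiz, an inducible co-regulator of NF-kB targets (0.77, SE 0.25, adjusted p = 0.0473). On 2% iron against chow 2 were higher, Nfkb1 (0.33, SE 0.09, adjusted p = 0.0207) and Tnfrsf1a (0.28, SE 0.08, adjusted p = 0.0266). The 2 lower were the receptor genes Lifr (-0.76, SE 0.18, adjusted p = 0.00848) and Il6ra (-0.59, SE 0.16, adjusted p = 0.0159). Of all genes, 11.9% were higher and 10.9% lower against chow. With cellulose 4 were higher and 1 lower, among them Stat3 (0.55, SE 0.15, adjusted p = 0.0144) and Nfkbiz (1.26, SE 0.24, adjusted p = 0.00204). Il6, the gene of interleukin-6, was at 0 TPM in all 3 mice on chow and all 3 on 50 ppm. In each other diet group, 500 ppm included, it was above 0 in at least 1 mouse. It was not among the genes called on 2% iron against 50 ppm or against chow. Only 19 of the 22 genes passed the filter on low counts, and a gene that did not pass could not be called. Whether Il6 passed is not reported here.

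Markers of other cells moved in the same mice. All 10 Kupffer cell and macrophage genes were called higher on 2% iron, against 50 ppm and against chow, and their summed level was 392.2 to 469 TPM on 2% iron, 451 to 670.2 TPM with cellulose, 98.7 to 184 TPM on 50 ppm and 118 to 139 TPM on chow. The 11 neutrophil genes summed to 1.57 to 3.77 TPM on 50 ppm, with Ltf at 0, 2.96 to 3.92 TPM on chow, with Ngp, Camp, Retnlg and Mmp8 at 0, 14.8 to 41.7 TPM on 2% iron and 24.01 to 173.1 TPM with cellulose. Of the 7 neutrophil genes tested 1 was called higher on 2% iron against 50 ppm, Csf3r (1.53, SE 0.32, adjusted p = 0.00676), and 6 with cellulose. Within each 2% diet and on chow mouse 1 was highest both in Lcn2 and in the neutrophil sum. Within the 500 ppm group mouse 2 was highest in both, at 18.1 TPM of neutrophil genes against 1.99 and 2.35 TPM. On 50 ppm mouse 2 was highest in Lcn2 and mouse 3 in the neutrophil sum. On 2% iron mice 2 and 3 both had 14.75 TPM of neutrophil genes, with Lcn2 at 34.3 and 74.6 TPM. With cellulose mouse 2 was above mouse 3 in Lcn2 and below it in the neutrophil sum. Adipocyte genes summed to 18.3 to 21.5 TPM on 50 ppm, with Adipoq and Lep at 0, and to 20.1 to 57.2 TPM on 2% iron, with Lep at 0, again highest in mouse 1. Of 7 stellate cell and fibroblast genes 6 were higher on 2% iron against chow (median 1.11) and 1 against 50 ppm, Rgs5 (1.93, SE 0.25, adjusted p = 0.000489), and their summed level was 64.2 to 74.6 TPM on chow, 76.7 to 116.4 TPM on 50 ppm, 125.4 to 141.7 TPM on 2% iron and 129.6 to 156.2 TPM with cellulose. Of 9 hepatocyte genes 3 were lower on 2% iron against 50 ppm, among them Cyp2e1 (-1.07, SE 0.13, adjusted p = 0.000489), and none higher. Their median log2 change was -0.06. The summed level of the 9 was 44070 to 50330 TPM on chow and 38280 to 47850 TPM on 50 ppm. It was 48230 to 54250 TPM on 2% iron and 48270 to 53230 TPM with cellulose, above all mice on 50 ppm. The part of these cells in the changes of the members was not tested.

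Across the 114 strains on 2% iron the spread of the 10 genes was graded, widest for Lcn2, Saa1, Saa2 and Orm2 and narrowest for Crp, Itih4 and Fgb on the log2 scale. Lcn2 ran from 10.03 TPM in BXH14/TyJ through a median of 75.6 TPM to 4031 TPM in BXD48/RwwJ, a 402-fold range. Saa1 ran from 7.28 TPM in NOR/LtJ through 59.0 TPM to 8302 TPM, and Saa2 from 2.86 TPM in BXD74/RwwJ through 28.7 TPM to 7702 TPM, both highest in BXD48/RwwJ. For Saa1 and for Saa2 12 strains lay more than 10-fold above the median, for Lcn2 7, for Orm2 6 and for Saa3 3, and for Orm1, Crp, Apcs, Fgb and Itih4 none did.

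Orm1 ran from 13.8 TPM in BALB/cJ through a median of 642 TPM to 5648 TPM in BXD48/RwwJ, and Orm2 from 0 TPM in CE/J through 11.9 TPM to 889 TPM in BXD48/RwwJ. Saa3, the serum amyloid A gene known from macrophages and fat as well as liver, ran from 1.74 TPM in AXB4/PgnJ through 5.10 TPM to 190 TPM in BXD48/RwwJ, with FVB/NJ next at 83.3 TPM. BXD48/RwwJ was thus the highest strain for Lcn2, all 3 Saa members, Orm1 and Orm2.

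Apcs ran from 99.2 TPM in BXD15/TyJ through 434 TPM to 1739 TPM in BXD43/RwwJ. Fgb ran from 649.8 TPM in BXD48a/RwwJ through a median of 1450 TPM to 4623 TPM in NZB/BlNJ, and Itih4 from 402 TPM in BXH2/TyJ through 1040 TPM to 2393 TPM in AXB5/PgnJ. Crp ran from 19.2 TPM in NZB/BlNJ through 160.3 TPM to 299 TPM in AXB5/PgnJ. BXH2/TyJ came next at 48.4 TPM and BXD22/TyJ after it at 98.3 TPM, so NZB/BlNJ and BXH2/TyJ stood below the other strains.

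The spread between strains was set beside that between mice of 1 diet. The SD of log2 CPM (counts scaled for library total) between strains was 2.14 for Saa2, 1.89 for Saa1, 1.84 for Orm2 and 1.81 for Lcn2, between the 99.29 and 99.67 percentile of 12204 genes. The SD within diet groups of C57BL/6J was 0.691, 0.791, 0.679 and 1.002 for these genes, so their levels also varied between mice of the same genotype and diet. For Lcn2 the within-group SD was higher than for the other members. Orm1, Apcs and Saa3 lay between, with between-strain SDs of 1.04, 0.859 and 0.742. Crp, Itih4 and Fgb had between-strain SDs of 0.45, 0.45 and 0.48, at the 70.35, 70.25 and 74.08 percentile. The 2 mice of 129X1/SvJ differed 1.49-fold in Lcn2 (59.3 and 39.8 TPM), 2.05-fold in Saa1 (101 and 206 TPM) and 2.21-fold in Saa3, and by 1.11-fold to 1.93-fold in the other members.

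**Figure D3:**
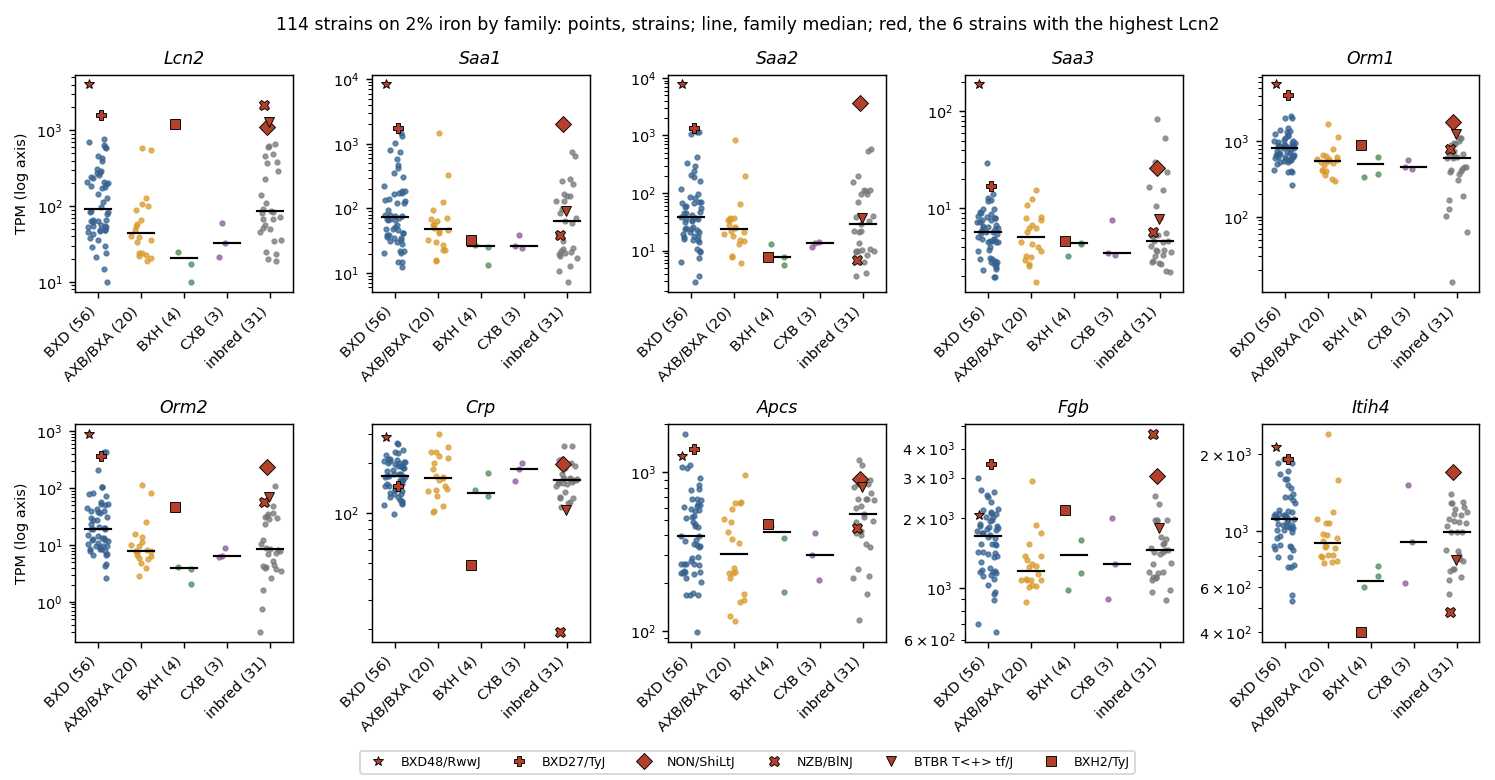
Level of the 10 genes in TPM (vertical log axes) for each of 114 strains by family (horizontal axes, number of strains in parentheses), with the family median as a line and the 6 strains with the highest Lcn2 as red symbols. The Orm2 level of CE/J, which is 0, is drawn at the foot of its axis. All 6 strains lie at or above 1113 TPM of Lcn2, while 3 of them lie near the middle of the Saa1 and Saa2 ranges or below.

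The 6 strains with the highest Lcn2 level differed in the rest of the acute phase genes. They are described, not tested, since they were picked by their Lcn2 level and each is 1 mouse. In BXD48/RwwJ, BXD27/TyJ and NON/ShiLtJ, Lcn2 at 4031, 1612 and 1113 TPM came with Saa1 at 8302, 1752 and 1991 TPM, the 3 highest of the panel. In NZB/BlNJ, BTBR T<+> tf/J and BXH2/TyJ, Lcn2 at 2178, 1282 and 1202 TPM came with Saa1 at 38.6, 89.9 and 32.8 TPM, within the quartiles of the panel (28.9 to 149 TPM). Saa2 was 6.85 TPM in NZB/BlNJ and 7.65 TPM in BXH2/TyJ, and 3703 TPM in NON/ShiLtJ. Orm2 was above its median of 11.9 TPM in all 6, from 46.4 TPM in BXH2/TyJ to 889 TPM in BXD48/RwwJ.

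NZB/BlNJ and BXH2/TyJ combined the lowest Crp and, at 482 and 402 TPM, the lowest Itih4 of the panel with a high Fgb of 4623 and 2181 TPM. Fgb in BXD48/RwwJ, the highest strain for Lcn2, was 2064 TPM and ranked 19 of 114. The haptoglobin gene Hp, a scavenger of free haemoglobin, was 17690 TPM in BXD48/RwwJ, 10200 TPM in BXD27/TyJ and 6697 TPM in NON/ShiLtJ, and 5443, 4980 and 3800 TPM in NZB/BlNJ, BTBR T<+> tf/J and BXH2/TyJ, against a median of 2624 TPM. The neutrophil genes summed to 75.3 TPM in BXD48/RwwJ (rank 23 of 114) and to 347 TPM in BXH2/TyJ (rank 1), and in the other 4 strains to 136.5 to 306 TPM, against a panel median of 16.4 TPM, with all 11 genes above 0 in each. Adipocyte genes summed to 119 TPM in BXH2/TyJ and 86.1 TPM in NZB/BlNJ, rank 1 and rank 2 of the panel, against a median of 28.6 TPM. The part of neutrophils or fat in these Lcn2 levels was not tested.

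Strains with nearly the same name could lie far apart, each with 1 mouse. BXD48a/RwwJ, whose name differs from BXD48/RwwJ by a letter, had 24.4 TPM of Lcn2 (rank 101 of 114), 12.6 TPM of Saa1, with 2 strains lower, and the lowest Fgb. Lcn2 was 21.95, 107 and 40.2 TPM in AXB19/PgnJ, AXB19a/PgnJ and AXB19b/PgnJ, and 111.7 and 23.4 TPM in BALB/cJ and BALB/cByJ. Among the parents of the families Lcn2 was 366 TPM in C57BL/6J, 92.5 TPM in C3H/HeJ, 83.2 TPM in DBA/2J, 72.8 TPM in A/J and 23.4 TPM in BALB/cByJ. The C57BL/6J mouse of the panel stood above the 34.3 to 150 TPM of the 3 C57BL/6J mice on 2% iron in the diet study, although the 2 tables were made separately and were not compared in a test.

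Between the 2 largest families, which share the parent C57BL/6J, 5 of the 10 were called higher in BXD than in AXB/BXA by edgeR, against 6.62% of all genes, and none lower, against 5.02% (11.6% in either direction). The median log2 difference of the 10 was 0.69, and that of all genes 0.01. The called members were Saa2 (2.17, SE 0.75, adjusted p = 0.0433), Orm2 (2.05, SE 0.56, adjusted p = 0.00874), Lcn2 (1.55, SE 0.51, adjusted p = 0.0335), Orm1 (0.77, SE 0.22, adjusted p = 0.0131) and Fgb (0.37, SE 0.12, adjusted p = 0.0284). Lcn2 had a median of 90.6 TPM in BXD (10.1 to 4031 TPM) and 44.5 TPM in AXB/BXA (19.1 to 578 TPM), and Orm2 19.5 TPM (2.64 to 889 TPM) and 7.94 TPM (2.80 to 115 TPM), so the families overlapped throughout. Saa1 (1.68, adjusted p = 0.0718), Saa3 (0.61), Apcs (0.44), Itih4 (0.18) and Crp (0.00) were not called by edgeR. DESeq2 called 6 of the 10, with Saa1 higher in BXD as well (1.83, adjusted p = 0.000426).

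This family difference rested in part on single strains. Without BXD48/RwwJ, 3 of the 10 were called, Orm2 at 1.64 (adjusted p = 0.0188), Orm1 at 0.62 (0.0165) and Fgb at 0.36 (0.0335), while Lcn2 stood at 1.09 (0.0864), Saa2 at 1.16 (0.201) and Saa1 at 0.92 (0.260). With limma on log2(TPM + 1), 1 was called, Orm1 at 0.60 (0.0372). Of the 22 other positive acute phase genes 5 were called higher in BXD, among them Orm3 (2.17, SE 0.37, adjusted p = 1.25e-05), the third orosomucoid gene, which can share reads with Orm2. Csf3r (0.51, adjusted p = 0.0309) and Cxcr2 (0.50, adjusted p = 0.0357) of the 7 neutrophil genes tested were also higher in BXD, and the part of neutrophils in the difference was not tested.

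Across strains the level of Lcn2 followed that of 8 of the other 9 members. The measure was Pearson's r of log2 CPM over 114 strains together with Spearman's rho, and the p came from a two-sided permutation test (100000 resamples) with Benjamini-Hochberg adjustment over the 9 relations. The r was 0.771 for Orm2 (rho 0.756), 0.671 for Saa1 (0.617), 0.636 for Apcs (0.641), 0.634 for Fgb (0.574), 0.621 for Saa2 (0.554), 0.552 for Orm1 (0.664), 0.487 for Saa3 (0.441) and 0.474 for Itih4 (0.552). Each of these r and rho had a permutation p of 1e-05, the smallest the resamples can give, and an adjusted p of 1.12e-05. For Crp r was -0.0994 (permutation p = 0.292, adjusted p = 0.292) and rho 0.0817 (permutation p = 0.387, adjusted p = 0.387). The share of all genes that would pass this test was not computed. The members were also ranked by r with Lcn2 among 11660 genes with a median of at least 1 CPM. The 8 ran from rank 6 (Orm2) to rank 377 (Itih4), and Crp ranked 7463. No member's strains formed separate clusters by the rule used.

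The relations were recomputed within families and without the strains farthest from the median Lcn2. Without BXD48/RwwJ and NZB/BlNJ, the r ranged from 0.427 for Saa3 to 0.751 for Orm2 among the 8, and was -0.0167 for Crp. Within the 56 BXD strains the r was 0.845 for Orm2, 0.801 for Orm1, 0.778 for Saa1, 0.752 for Saa2, 0.725 for Itih4, 0.671 for Apcs, 0.602 for Fgb, 0.554 for Saa3 and 0.227 for Crp, the last with an adjusted permutation p of 0.0920. Within the 20 AXB/BXA strains it ran from 0.560 for Fgb to 0.816 for Saa1 in 7 members, and was 0.262 for Saa3 (adjusted permutation p = 0.296) and 0.157 for Crp (0.509). There rho missed the threshold also for Orm1 (0.478, adjusted permutation p = 0.0531) and Fgb (0.338, 0.186). Within the 31 other inbred strains it was 0.733 for Orm2, 0.651 for Fgb, 0.598 for Apcs, 0.492 for Saa1, 0.475 for Orm1, 0.427 for Saa3 and 0.408 for Saa2, and 0.194 for Itih4 (adjusted permutation p = 0.298) and -0.288 for Crp (0.123). There rho missed the threshold also for Saa2 (0.287, adjusted permutation p = 0.132) and Saa3 (0.335, 0.102). For Crp rho was 0.128 there (adjusted permutation p = 0.488), opposite in sign to r. The 4 BXH and 3 CXB strains were too few for a value. Whether r differed between families was not tested.

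**Figure D4:**
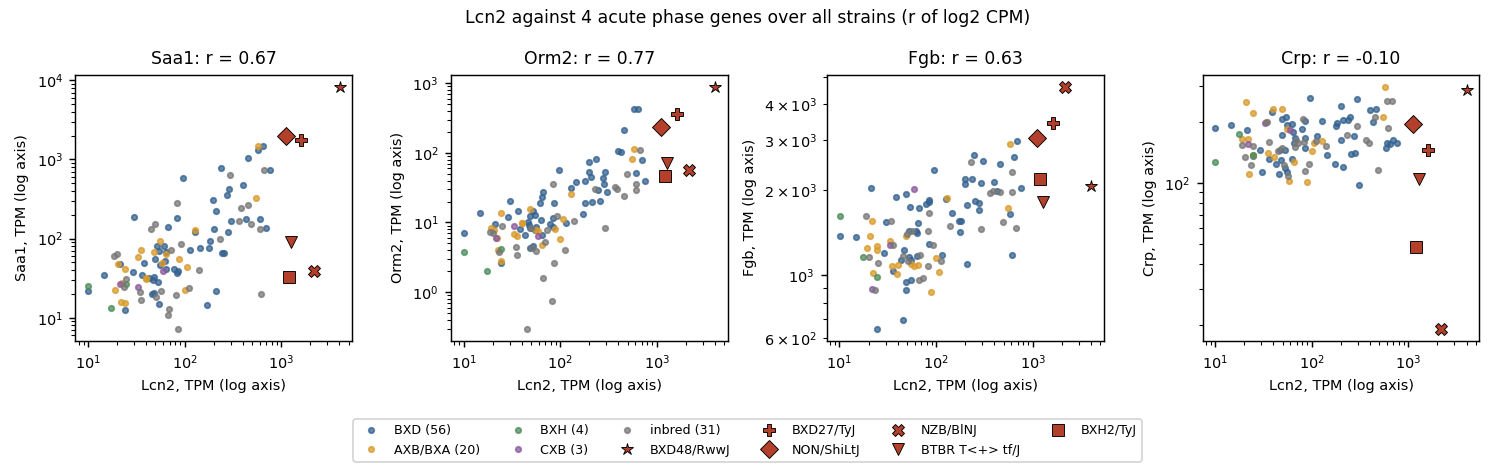
Level of Saa1, Orm2, Fgb and Crp (vertical log axes, TPM) against Lcn2 (horizontal log axis, TPM) for 114 strains, by family, with the 6 strains highest in Lcn2 as red symbols and r of log2 CPM above each plot. The Saa1 plot shows NZB/BlNJ, BTBR T<+> tf/J and BXH2/TyJ below the trend of the other strains, and the Crp plot shows NZB/BlNJ and BXH2/TyJ at the foot of the axis.

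Among the members the closest pair was Saa1 and Saa2 (r = 0.977 over 114 strains), whose transcripts share sequence, followed by Orm1 and Orm2 at 0.812 and Saa1 and Orm2 at 0.793. Crp had its highest r among the members with Itih4 (0.472) and stood at -0.0122 with Fgb and -0.0898 with Apcs. Of the 10 strains highest in Lcn2, 6 were among the 10 highest in Saa1, 5 in Orm2 and in Fgb, 3 in Apcs and 2 in Crp. These values are descriptions over the same 114 libraries.

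**Figure D5:**
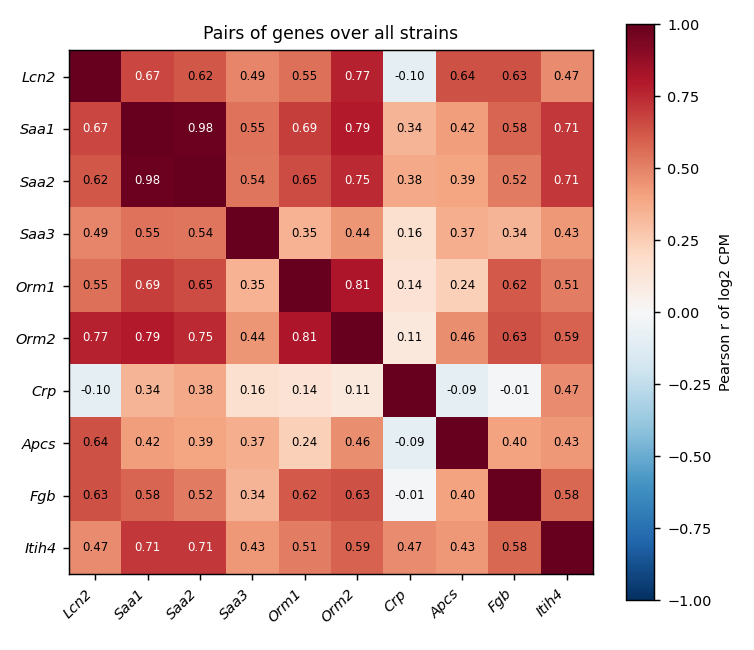
Pearson's r of log2 CPM over 114 strains for each pair of the 10 genes (both axes list the genes, color gives r from -1 to 1). Saa1 and Saa2 form the darkest pair, and the row of Crp is pale except toward Itih4, Saa2 and Saa1.

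Among 11660 genes with a median of at least 1 CPM, those whose level over 114 strains was most like that of Lcn2 were Hp (r = 0.876), Hpx (0.858), which encodes the haem carrier hemopexin, Fgl1 (0.820), Cp (0.816), the gene of ceruloplasmin, Lrg1 (0.806), Orm2 (0.771), Litaf (0.762) and Itih3 (0.760). Orm2 was the one member among these 8, Saa1 ranked 23 and Itih4 ranked 377. Among the lowest r were those of Hibadh (-0.743), Hsd3b3 (-0.701) and Sdha (-0.694), of which Hibadh and Sdha encode mitochondrial enzymes of valine breakdown and of the citric acid cycle. For Fgb the most similar genes were Fgg (0.976) and Fga (0.975), which encode the other fibrinogen chains, and Cpb2 (0.765). For Saa1 they included Saa2 and Orm2, for Itih4 they were Cd302 (0.801), Cfi (0.771) and Vtn (0.770), and for Crp Prr16 (0.739), Synj2bp (0.724) and the mannose-binding lectin gene Mbl1 (0.699). For Apcs they were F11r (0.673), Hpx (0.638) and Lcn2, and for Saa3 Ifitm2 (0.555), Saa1 and Saa2. These likenesses are descriptions with no test, over libraries of 1 mouse per strain for all strains except 129X1/SvJ.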

How the data were processed

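Liver RNA of 15 diet mice and 115 panel mice was sequenced from a stranded mRNA kit, per the labels' protocols. The deposited tables hold expected counts, estimated per gene by the authors, and TPM values made by the authors for the same genes. The submitters' processing notes name kallisto 0.46 and the build mm10 without giving the role of either, and the panel tables are named for Ensembl release 97. The tests had been planned for counts, and the deposited expected counts were rounded to whole numbers first. The 2 studies were never tested together, since their tables were made separately. Symbols from GENCODE M21 (GRCm38) matched 34845 of 35274 and 35612 of 35711 identifiers.

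Genes were filtered with filterByExpr, scaled by TMM and tested with edgeR's quasi-likelihood test. The fit was of all 5 diets, or of the BXD and AXB/BXA strains alone for the panel. Benjamini-Hochberg adjustment was over all genes tested, with a threshold of 0.05. SE is the standard error of a log2 change. The p-values measure the spread between these mice. The 129X1/SvJ mice were averaged in strain levels. Panel relations used log2 CPM with a prior count of 2, and levels are TPM. A member would have been treated as clustered where a mixture of 2 components gave an Ashman D above 3 and a BIC gain over 10 with at least 3 strains in each.

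The members and the lists were chosen with earlier results of these data known. Named besides the members are the called genes with the largest changes of each list (4 per direction on 2% iron against 50 ppm and against chow, 2 elsewhere), the 8 highest and 4 lowest r for Lcn2, the 3 highest for each other member, the 3 highest and lowest strains of a member, the 6 highest of Lcn2 and the parents of the families. A few genes that this rule names are not reported here. Strains with nearly the same name, AXB19/PgnJ and BXD48a/RwwJ among them, and marker genes were added after their values were seen. Alternatives were RLE factors, no filter, a minimum of 10 counts in every library, DESeq2, limma on log2(TPM + 1) and log2(TPM + 0.1), and limma-trend. Others were summed paralogs (Saa1 with Saa2, and Orm1 with Orm2 and Orm3), the compared groups alone, other prior counts, and leaving out each mouse. Leaving out BXD48/RwwJ, BXD27/TyJ, BXD65/RwwJ or the 3 strains highest in Saa1 was chosen after seeing the data. The scripts were tested on simulated data. R 4.3.3, edgeR 4.0.16, limma 3.58.1, DESeq2 1.42.0, Python 3.11.15, numpy 2.4.6, scipy 1.17.1, pandas 2.3.3, scikit-learn 1.9.0, biopython 1.88 and matplotlib 3.10.9 were used.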

Additional observations from a re-analysis of the deposited data

Results flagged for a closer look

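Among the 4 BXH strains, BXH2/TyJ lay far above the other 3 for both Lcn2 and Orm2. Its Lcn2 level was 1202 TPM, against 10.03, 17.48 and 24.59 TPM. Its Orm2 level was 46.4 TPM, against 2.04, 3.731 and 4.118 TPM. The gap to the nearest strain took up 0.988 and 0.953 of the range of the 4 strains. These were 2 of 10 genes examined in this way, and chance marks about 1 in 20. Each strain is 1 mouse, and BXH2/TyJ also had the highest summed neutrophil markers of the panel, 347 TPM, whose part in these levels was not tested.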

How the results depend on the processing

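No paired analysis was possible because the labels carry no replicate numbers. On 2% iron against 500 ppm the 2 calls became 0 with limma (both pseudocounts), 1 with paralogs summed and 1 in a fit of the 2 groups alone. In BXD against AXB/BXA the 5 calls became 3 without a filter, 1 with limma (both pseudocounts), 3 with paralogs summed, 2 with limma-trend, 3 without BXD48/RwwJ, 3 without BXD48/RwwJ and BXD27/TyJ, and 3 with substrains as 1 strain, and with DESeq2 they became 6. Leaving out each mouse, the calls ran from 2 to 5 on 2% iron against 50 ppm, 0 to 5 against 500 ppm and 0 to 1 for chow against 50 ppm. For cellulose against 50 ppm the 4 calls became 5 with limma, which added Saa3, and 5 in a fit of the 2 groups alone, which added Crp. Summing paralogs leaves fewer features to call, and otherwise the cause was not tested. Without the 3 strains highest in Saa1, r of Lcn2 with Crp was -0.189 (adjusted permutation p = 0.0462), so that 9 relations passed by r, while rho was 0.0491 (adjusted permutation p = 0.606) and did not pass.

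Signs turned with limma for Saa3 on 2% iron against 500 ppm (-0.28 and -0.34), Saa3 on chow against 50 ppm (-0.14 and -0.17), Orm1 on 2% iron against chow (0.05 and 0.05) and Itih4 with cellulose against 2% iron (0.01 and 0.01), and r of Lcn2 with Crp turned within BXD (0.227) and AXB/BXA (0.157). None of these log2 changes was called. Leaving out each mouse also turned uncalled log2 changes. On 2% iron against 50 ppm these were Saa3 (-0.22 to 0.30) and Orm2 (-0.61 to 0.44). On 500 ppm against 50 ppm they were Itih4 (-0.07 to 0.28), Lcn2 (-0.03 to 1.73), Fgb (-0.05 to 0.40), Crp (-0.15 to 0.07), Saa3 (-0.42 to 0.21), Saa2 (-1.05 to 0.02), Orm2 (-0.35 to 0.98) and Saa1 (-1.33 to 0.03). On 2% iron against 500 ppm they were Itih4 (-0.13 to 0.21), Saa3 (-0.23 to 0.38) and Orm2 (-0.96 to 0.15), and against chow Saa3 (-0.28 to 0.11). For chow against 50 ppm it was Saa3 (-0.13 to 0.39), with cellulose against 2% iron Itih4 (-0.13 to 0.02) and Apcs (-0.04 to 0.56), and with cellulose against 50 ppm Orm1 (-0.12 to 0.24) and Saa3 (-0.44 to 0.08). The 3 mice per diet and 1 per strain limit the precision, and Saa3, Orm2 and Lcn2 on chow are the members of lowest level.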

Other observations

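Orm3, which lies between Orm1 and Orm2, was at 0.636 to 2.45 TPM on chow and at 2.24 to 3.35 TPM on 2% iron with cellulose. Across strains it ran from 0.129 to 115 TPM around a median of 6.25 TPM, highest in BXD27/TyJ, and its family median was 13.4 TPM in BXD and 3.96 TPM in AXB/BXA. Saa4 separated the 6 strains with the highest Lcn2 in the same way as Saa1, with 306, 145 and 182 TPM in BXD48/RwwJ, BXD27/TyJ and NON/ShiLtJ and 8.34, 47.8 and 9.36 TPM in NZB/BlNJ, BTBR T<+> tf/J and BXH2/TyJ, around a median of 59.3 TPM. Fga and Fgg, the genes of the other fibrinogen chains, did not follow that division, with Fga at 8524 TPM in NZB/BlNJ (rank 1 of 114) and 4717 TPM in BXD48/RwwJ (rank 17). These values are descriptions with no test.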
